A study of Saccharomyces cerevisiae W303 with 86 samples.

Results

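The comparison described here sets atp7D puf3D cells against puf3D cells of the budding yeast Saccharomyces cerevisiae, strain W303-1A, so that loss of the ATP synthase subunit gene ATP7 was read in cells that had no PUF3 in either group. Its members were the 3 atp7D puf3D libraries and the 3 puf3D libraries of the set in which PUF3 was deleted, 6 of the 86 libraries in the series. Both groups carried the puf3 deletion, and the first carried the atp7 deletion as well. Beside them, 3 atp7D libraries and 3 wild-type libraries of the same set carried PUF3, and they share no library with the main comparison. A separate set of cultures, made to compare OXPHOS (oxidative phosphorylation) mutants, gave another 3 atp7D and 6 wild-type libraries. All cells were grown without treatment to mid-log phase, OD 0.5 to 0.8, in synthetic complete medium with 2% glucose. The series' design calls the 3 libraries of a group biological replicates, and the labels name neither separate transformants nor clones. PolyA RNA was sequenced, and each library was deposited as RPKM, reads per kilobase of feature, scaled to the size of the library. Levels below are RPKM as deposited, while changes were computed on log2(RPKM + 1) after the libraries were rescaled to one another, so a change can differ slightly from the ratio of the printed levels.

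ATP synthase is the enzyme of the inner mitochondrial membrane that makes ATP from the proton gradient built by the respiratory chain. Atp7 is part of the stalk that holds its catalytic F1 head against the rotating Fo ring, and yeast without it cannot respire but grow by fermenting glucose. Puf3 is an RNA-binding protein of the Pumilio family that binds the 3' ends of many mRNAs encoding mitochondrial proteins, above all those of the mitochondrial ribosome, and controls their decay and translation. Respiratory-deficient yeast are known to raise the retrograde genes, which feed glutamate synthesis from a shortened TCA cycle, and the pleiotropic drug resistance genes, which encode membrane pumps. The question addressed was which of the transcript changes that follow loss of ATP synthase are present in cells that lack Puf3.

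ATP7 was listed at 0 RPKM in all 3 atp7D puf3D libraries, against 312, 279 and 290.0 RPKM in the puf3D libraries. PUF3 was at 0.147, 0.0325 and 0.0327 RPKM in atp7D puf3D cells and 0, 0.194 and 0.0664 RPKM in puf3D cells, against 41.6, 43.8 and 43.2 RPKM in wild-type cells, so both deletions read as labelled. Of the genes beside ATP7 on chromosome XI, HCS1, a DNA helicase gene, did not pass the test (log2 change -0.10, SE 0.06, adjusted p = 0.14), and PUT3, a regulator of proline use, fell slightly (log2 change -0.35, SE 0.08, adjusted p = 0.0012). The 6 libraries held 11401156 to 12907864 reads, recovered from the steps of the RPKM values. The 6 markers of mating type a summed to 2156 to 2429 RPKM in atp7D puf3D cells and 2180 to 2530 RPKM in puf3D cells, and W303-1A is of mating type a. They summed to only 562 to 827 RPKM in the wild-type libraries of the same set, which bears on every comparison that uses those libraries. In the OXPHOS set these markers summed to 2436 to 2602 RPKM in atp7D libraries and 1246 to 2087 RPKM in wild-type libraries. The 4 markers of mating type alpha summed to 30.2 to 34.0 RPKM in atp7D puf3D cells and 25.0 to 27.2 RPKM in puf3D cells, and the 6 markers of diploid or sporulating cells to 29.3 to 33.6 RPKM and 16.6 to 19.5 RPKM in the same order of groups. The mitochondrial gene COX1 had 8.11, 9.30 and 8.44 RPKM in atp7D puf3D cells and 6.15, 16.1 and 14.2 RPKM in puf3D cells, while all 8 transcripts of mitochondrial DNA were at 0 in the 3 r0 puf3D libraries, whose cells have lost that DNA. Of the 4 tested by limma, COX1 (log2 change -0.46, adjusted p = 0.26) and OLI1 (-0.43, adjusted p = 0.19) were not called. COX2 (1.04, adjusted p = 0.00023) and COX3 (1.025, adjusted p = 7.7e-05) rose, from means of 0.382 and 0.427 RPKM in puf3D cells. COX1 overlaps other features, AI5_ALPHA over 9350 of its 12884 bases, so its reads cannot be assigned with certainty. How fully polyA libraries hold mitochondrial transcripts was not tested.

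The 6 libraries of both atp7 groups in the PUF3 set stood apart from the other 12 in features of repeated sequence, in the same way whether or not PUF3 was present. RDN25-1, a ribosomal RNA gene of the rDNA array, had 14.0, 18.2 and 14.8 RPKM in atp7D puf3D libraries and 0.784, 1.96 and 2.43 RPKM in puf3D libraries, and RDN58-1, another gene of that array, had 0, 0.543 and 1.09 RPKM and 40.2, 43.7 and 34.4 RPKM in the same order. The number of features at 0 was 227 to 290 in the 6 libraries of both atp7 groups, against 333 to 416 in the other 12 libraries. In the OXPHOS set this number was 359 to 371 in atp7D libraries and 331 to 390 in wild-type libraries. The labels name no batch, so a difference in how these libraries were made or counted and the deletion of ATP7 cannot be told apart within the PUF3 set. Counts and medians of the OXPHOS set are therefore given beside those of the gene lists, and repeated features are given as uncertain. Counts in the OXPHOS set depend on its wild-type libraries. With wild-type libraries 1 to 3 alone 2330 features were called there, and with libraries 4 to 6 alone 4010. Below, the largest changes are ranked among called genes with a symbol whose 6 libraries had a mean log2 value of 3 or more and whose groups did not overlap. By this rule TAR1 led the rises and MOR1 the falls apart from ATP7, and neither moved this way in the OXPHOS set. RDN58-1, which lies below that level, fell by more than MOR1 (log2 change -4.85, SE 0.29, adjusted p = 8.8e-09). TAR1, a reading frame inside the rDNA on chromosome XII, had 55.0, 78.4 and 57.8 RPKM in atp7D puf3D cells and 0.229, 1.59 and 2.11 RPKM in puf3D cells, and it was at 0 to 0.25 RPKM in atp7D cells of the OXPHOS set. MOR1 had 14.6, 13.1 and 15.8 RPKM in atp7D puf3D cells and 232, 292 and 258 RPKM in puf3D cells, but it was higher in atp7D cells of the OXPHOS set (log2 change 0.75, adjusted p = 0.025). The array gene CUP1-1, for a copper-binding metallothionein, had 7.08, 7.38 and 6.96 RPKM in atp7D puf3D cells and 0.462, 0 and 0 RPKM in puf3D cells.

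Loss of ATP7 in cells without PUF3 changed most of the transcriptome. Of 6812 features tested with limma on log2(RPKM + 1), with Benjamini-Hochberg adjusted p under 0.05, 4319 were called, 63.4% of those tested. Of these, 2253 (33.1%) were higher in atp7D puf3D cells and 2066 (30.3%) were lower. These 2 shares are the background for the counts of rises and falls in the gene lists below. The groups did not overlap for 36.4% of features with atp7D puf3D cells higher and 33.7% with them lower. The median change of all features was 0.02 on the log2 scale. It was 0.31 for features with a mean log2 level under 3, 0.03 for those at 3 to 7 and -0.096 for those over 7. Without the rescaling of libraries, 4292 were called, 2701 higher and 1591 lower, and the median change of all features was 0.13. RPKM values are shares of each library's reads, so a change is relative to the other transcripts of the same cells and amounts per cell were not measured. Samples were bulk cultures, in which fewer cells of a kind and less RNA per cell cannot be told apart. The groups were tight: the median SD between libraries was 0.058 in atp7D puf3D cells and 0.099 in puf3D cells on the log2 scale. All of the 10 largest rises and 10 largest falls by the rule above, ATP7 apart, were also called in the same direction in atp7D against wild type of the PUF3 set. In the OXPHOS set 6 of the 9 rises that could be tested and 7 of the 10 falls were called in the same direction, and MOR1 in the opposite one. Library 1 of the puf3D group lay away from libraries 2 and 3 for some genes, CIT2 and HXT2 among them, which are given with all their values.

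Of the 36 gene lists, the one with the highest median change was the general stress response, whose genes protect proteins and membranes when growth slows. Of 38 tested members of the stress list, 37 rose, none fell, and the median change was 2.36 (log2), against 0.02 over all features. HSP42, a small heat shock protein that gathers misfolded proteins, had 459, 445 and 541 RPKM in atp7D puf3D cells and 13.8, 17.9 and 26.3 RPKM in puf3D cells (log2 change 4.50, SE 0.53, adjusted p = 3.7e-06). HSP12, a membrane-protecting small heat shock protein, had 848, 818 and 832 RPKM in atp7D puf3D cells and 61.4, 69.5 and 105 RPKM in puf3D cells (log2 change 3.32, SE 0.40, adjusted p = 4.4e-06). Every atp7D puf3D library was far above every puf3D library for both genes. CTT1, the cytosolic catalase that removes hydrogen peroxide, had 141, 134 and 173 RPKM in atp7D puf3D cells and 7.32, 7.22 and 9.50 RPKM in puf3D cells (log2 change 3.96, SE 0.29, adjusted p = 5.1e-08). The single member that missed the threshold was SSA3, an inducible Hsp70 chaperone gene, with a log2 change of -0.05 (adjusted p = 0.56).

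Other genes known from slow growth or stress were among the 10 largest rises. TDH1, the form of glyceraldehyde-3-phosphate dehydrogenase made by slowly growing cells, had 962, 970.0 and 1059.6 RPKM in atp7D puf3D cells and 31.5, 41.9 and 62.7 RPKM in puf3D cells (log2 change 4.37, SE 0.40, adjusted p = 3.8e-07). TMA10, a ribosome-associated protein of stressed cells, had 249, 226 and 283 RPKM in atp7D puf3D cells and 7.89, 6.53 and 8.07 RPKM in puf3D cells, a log2 change of 4.80 (SE 0.68, adjusted p = 2.1e-05). ROQ1, whose product redirects protein degradation under stress, had 178, 169.9 and 219.7 RPKM against 7.90, 5.41 and 10.9 RPKM in puf3D cells. These 3 genes were many times higher in every atp7D puf3D library than in any puf3D library. BTN2, which gathers misfolded proteins, and HSP30, a stress protein of the plasma membrane, had log2 changes of 3.81 (SE 0.25) and 4.27 (SE 0.91). RGI1 and RTC3, both induced under stress or respiratory growth, had log2 changes of 3.65 (SE 0.64) and 3.63 (SE 0.25). In the OXPHOS set HSP30, BTN2 and RGI1 did not pass the test, with log2 changes of -0.36 (adjusted p = 0.56), 0.74 (adjusted p = 0.11) and 0.79 (adjusted p = 0.21).

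**Figure D1:**
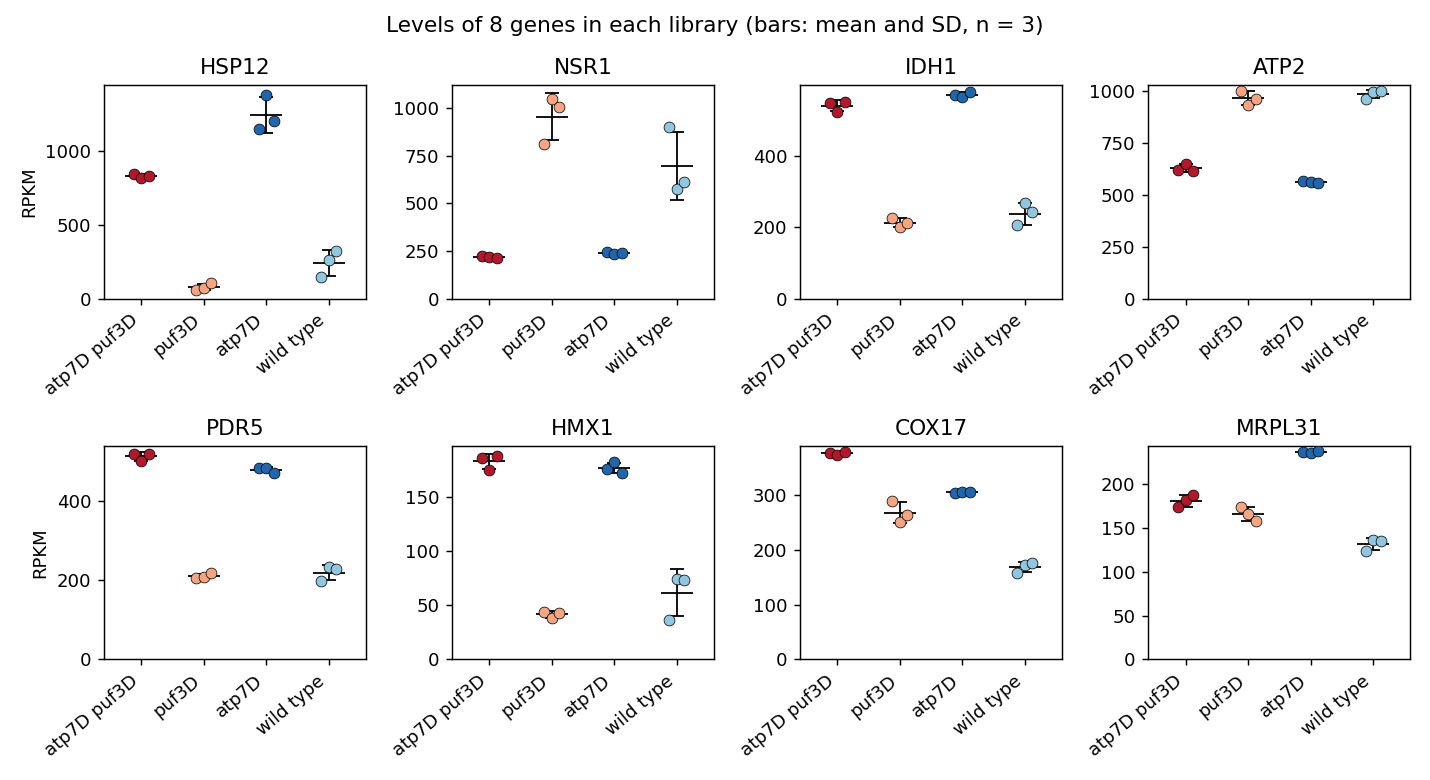
RPKM (vertical axes, each from 0) of 8 genes in the 3 libraries of the atp7D puf3D, puf3D, atp7D and wild-type groups of the PUF3 set; points are libraries, bars the mean and SD. HSP12, IDH1, PDR5 and HMX1 are high in both atp7 groups and NSR1 and ATP2 low, while MRPL31 is at 174 to 188 RPKM in atp7D puf3D cells and 158 to 174 RPKM in puf3D cells.

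Stress genes also rose with ATP7 loss where PUF3 was present. The mean of the 38 genes on the log2 scale was 7.01, 6.95 and 7.09 in the atp7D puf3D libraries and 6.81, 7.04 and 6.86 in the atp7D libraries. In cells with ATP7 it was 4.60, 4.73 and 4.91 in the puf3D libraries, and 4.78, 5.75 and 5.59 in the wild-type libraries, of which library 1 was the lowest. In atp7D against wild type of the PUF3 set, 32 of the 38 rose (29.3% of all features did, and 54.6% were called in either direction) with a median of 1.48. Of the same genes, 29 rose in the OXPHOS set (20.8% of all features did, and 45.3% were called in either direction) with a median of 0.72. The difference between the effect without and with PUF3 was called for 4 of the 38, all positive, with a median of 0.69. Of all features 2.5% were called higher in this test. The difference was called for 28 of the 38 when wild-type library 1 was left out and for 1 when wild-type library 2 or 3 was left out, so the count depends on the wild-type libraries.

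Genes that build cytosolic ribosomes fell together, with the lowest median of the 36 lists. All 80 members of the ribosome biogenesis list, which make, process and assemble ribosomal RNA and proteins in the nucleolus, fell, and their median change was -1.44 on the log2 scale. NSR1, a nucleolar protein that processes pre-rRNA, had 224, 219.9 and 213 RPKM in atp7D puf3D cells and 813, 1045 and 1004 RPKM in puf3D cells (log2 change -2.22, SE 0.20, adjusted p = 3.5e-07). DBP2, an RNA helicase, had 122, 116 and 114 RPKM in atp7D puf3D cells and 476, 739 and 688 RPKM in puf3D cells (log2 change -2.51, SE 0.25, adjusted p = 7.9e-07). For both genes the puf3D libraries were all above the atp7D puf3D libraries, by a wide margin. SSF1, RSA4 and DHR2, which act in assembly of ribosomal subunits, had log2 changes of -2.21 (SE 0.23), -2.17 (SE 0.24) and -2.33 (SE 0.21). RRN11, a subunit of the factor that recruits RNA polymerase I to the rDNA, had 9.0, 8.55 and 8.95 RPKM in atp7D puf3D cells and 39.4, 54.2 and 46.1 RPKM in puf3D cells (log2 change -2.37, SE 0.34). SLM6, also among the 10 largest falls, overlaps the ribosome assembly gene REI1 over its whole length of 453 bases, and REI1 itself had 49.7, 48.6 and 47.7 RPKM in atp7D puf3D cells and 170.3, 233 and 222 RPKM in puf3D cells. Reads of this pair cannot be assigned with certainty.

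The cytosolic ribosomal proteins themselves fell less. Of 138 tested genes, 126 fell, 1 rose, and the median change was -0.50. RPL12A, of the large subunit, had 1432, 1434 and 1380.2 RPKM in atp7D puf3D cells and 2142, 2078 and 2109.6 RPKM in puf3D cells (log2 change -0.69, SE 0.08, adjusted p = 2.4e-06). RPS22A, of the small subunit, had 1866, 1893 and 1793 RPKM in atp7D puf3D cells and 2704, 2771 and 2689 RPKM in puf3D cells (log2 change -0.67, SE 0.08). RPL15B went the other way, at 64.7, 60.4 and 65.7 RPKM in atp7D puf3D cells and 45.5, 40.9 and 40.5 RPKM in puf3D cells (log2 change 0.47, SE 0.10, adjusted p = 0.00064), and it is the lesser expressed copy of a pair. Many of these genes come as near-identical pairs, so the split of reads within a pair is uncertain. The counting in whole reads could be rebuilt for 50 of the 138, and 46 of those 50 fell.

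Both ribosome lists fell with PUF3 present too. All 80 ribosome biogenesis genes fell in atp7D against wild type of the PUF3 set (25.2% of all features did), with a median of -0.90, and all 80 fell in the OXPHOS set (24.4% of all features did), with a median of -0.55. Their mean on the log2 scale was 6.35, 6.36 and 6.30 in atp7D puf3D libraries and 7.69, 7.87 and 7.76 in puf3D libraries. It was 6.44, 6.38 and 6.44 in atp7D libraries, and 7.74, 7.11 and 7.16 in wild-type libraries. The difference of the effects was called for 2 of the 80 (negative, median -0.52), while 4.95% of all features were called lower in this test. For these 80 genes it was called for none when wild-type library 2 or 3 was left out, and for all 80 when wild-type library 1 was left out. The cytosolic ribosomal proteins had medians of -0.48 with PUF3 in the PUF3 set and -0.38 in the OXPHOS set, and the difference was called for none of the 138 by limma (0 at an unadjusted p under 0.05, and 0 of 50 with voom on recovered reads).

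**Figure D2:**
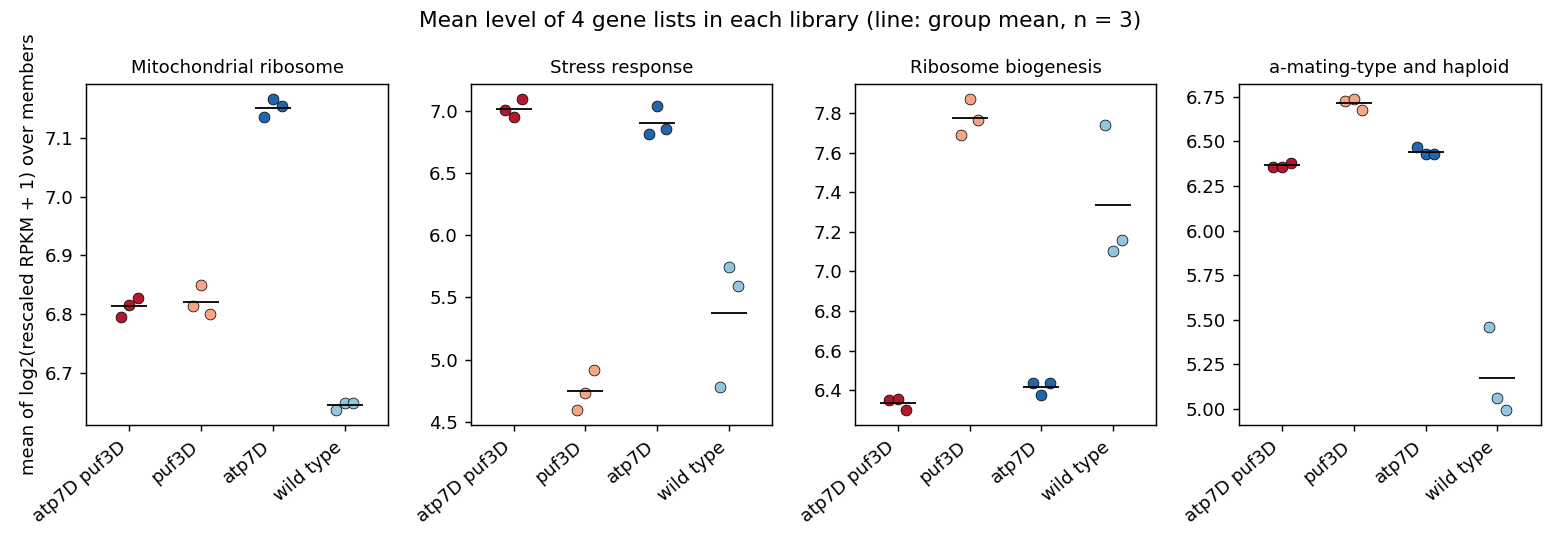
Mean of log2(rescaled RPKM + 1) over the members of 4 gene lists in each library of the PUF3 set (vertical axis; axes do not start at 0), with the group mean as a line. The atp7D puf3D and puf3D libraries lie together for the mitochondrial ribosome, at 6.80 to 6.83 and 6.80 to 6.85, while the atp7D libraries, at 7.13 to 7.17, lie above the wild-type libraries, at 6.64 to 6.65.

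Without PUF3, most retrograde and TCA cycle genes rose. Of the 7 retrograde genes, all rose (median 1.24, against 6 rises, no falls and a median of 0.58 in the OXPHOS set). With PUF3 in the PUF3 set 4 of the 7 rose and none fell (median 0.58). The difference was called for 2 of them, each positive (median 0.39), a count of 0 to 3 under the alternatives. This list and the next share members, CIT1 among them. Of 15 genes of the TCA cycle and complex II, 13 rose and none fell (median 0.43, against 5 rises, 1 fall and a median of -0.07 in the OXPHOS set). With PUF3 in the PUF3 set 7 of the 15 rose and 3 fell (median 0.06), and the difference was called for 5, all positive (median 0.24), a count that became 9, 2 and 1 on leaving out wild-type library 1, 2 and 3 in turn. Of all features 2.5% were called higher in the difference. IDH1, a subunit of the mitochondrial isocitrate dehydrogenase, had 547, 522 and 550.4 RPKM in atp7D puf3D cells and 224, 199 and 212 RPKM in puf3D cells (log2 change 1.24, SE 0.09, adjusted p = 7.1e-08). ACO1, aconitase, had 1197, 1209.7 and 1203 RPKM in atp7D puf3D cells and 546, 502 and 524 RPKM in puf3D cells (log2 change 1.09, SE 0.07, adjusted p = 1.9e-08). CIT1, the mitochondrial citrate synthase, had 323, 320.1 and 328 RPKM in atp7D puf3D cells and 116, 96.6 and 111 RPKM in puf3D cells (log2 change 1.47, SE 0.16, adjusted p = 1.5e-06). For these 3 enzymes, which lead from acetyl-CoA to 2-oxoglutarate, every atp7D puf3D library was far above every puf3D library.

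CIT2, the peroxisomal citrate synthase by which the retrograde pathway is usually followed, was less even. It had 276, 277 and 302 RPKM in atp7D puf3D cells and 179, 69.8 and 93.3 RPKM in puf3D cells, where library 1 lay well above the others (log2 change 1.32, SE 0.26, adjusted p = 0.0004). It had 289.9, 268 and 276 RPKM in atp7D cells and 163, 347 and 326 RPKM in wild-type cells, with library 1 lowest (log2 change -0.01, SE 0.26, adjusted p = 0.97). CIT2 rose in the OXPHOS set, with a log2 change of 0.46 (adjusted p = 0.018). The difference of the effects was called for CIT2 (log2 difference 1.33, SE 0.37, adjusted p = 0.038) and for CIT1 (log2 difference 0.90, SE 0.22, adjusted p = 0.022), but not for IDH1 (0.06, SE 0.13), IDH2 (0.09, SE 0.14) or ACO1 (0.16, SE 0.10). Leaving out any single library gave CIT2 an adjusted p of 0.001 to 0.11, and the call was kept only without wild-type library 1 or puf3D library 1. For CIT1, fits without a single library gave an adjusted p of 1.1e-06 to 0.067, and the call was kept only without wild-type library 1, puf3D library 1, puf3D library 3, atp7D library 2 or atp7D puf3D library 1. ACO1 was called without wild-type library 1 (adjusted p = 0.044).

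Subunits of the enzyme that had lost Atp7 fell together. Of the 13 other ATP synthase subunits of the lists, all encoded in the nucleus, 9 fell, none rose, and the median was -0.39. OLI1, a subunit encoded in mitochondrial DNA, lies outside these 13 and was not called (log2 change -0.43, SE 0.27, adjusted p = 0.19). ATP2, the catalytic beta subunit of F1, had 619, 648 and 615 RPKM in atp7D puf3D cells and 999, 932 and 962 RPKM in puf3D cells (log2 change -0.73, SE 0.05, adjusted p = 2.2e-08). ATP5, the subunit that joins the stalk to F1, had 216, 225 and 228 RPKM in atp7D puf3D cells and 322, 311 and 306 RPKM in puf3D cells (log2 change -0.60, SE 0.05, adjusted p = 1.4e-07). ATP1, the alpha subunit, had a log2 change of -0.57 (SE 0.05). The same 13 had 9 falls with PUF3 in the PUF3 set (median -0.43) and 13 in the OXPHOS set (median -0.54), and the difference of the effects was called for none of them by limma (2 at an unadjusted p under 0.05, and 0 of 13 with voom). PET9, the major carrier that exchanges ADP for ATP across the inner membrane, fell alongside, at 738, 776 and 724 RPKM in atp7D puf3D cells and 1101, 1077 and 1122 RPKM in puf3D cells (log2 change -0.67, SE 0.05, adjusted p = 3.5e-08).

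The small proteins that hold ATP synthase back from hydrolysing ATP did not move as one. INH1, the inhibitor itself, had 132, 129 and 137 RPKM in atp7D puf3D cells and 188, 163 and 172 RPKM in puf3D cells. The groups did not overlap, but the log2 change of -0.50 (SE 0.21) missed the threshold at an adjusted p of 0.051. That SE rests on the spread over all 18 libraries of the PUF3 set, not on these 6 alone. INH1 fell with PUF3 present in the PUF3 set (log2 change -0.90, adjusted p = 0.0021) and in the OXPHOS set (-1.24, adjusted p = 1.4e-07). The difference of 0.40 (SE 0.30, adjusted p = 0.43) was not called. STF1, a related inhibitor, had 235, 249 and 249.6 RPKM in atp7D puf3D cells and 51.3, 51.6 and 56.5 RPKM in puf3D cells (log2 change 2.07, SE 0.20, adjusted p = 4.8e-07). STF2, a protein that stabilises the inhibited complex and protects dried cells, had 509, 511 and 633 RPKM in atp7D puf3D cells and 62.6, 85.6 and 126 RPKM in puf3D cells (log2 change 2.52, SE 0.31). Both rises were also called with PUF3 present in either set.

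The respiratory chain changed in part. Of 9 complex III subunits 4 fell and 1 rose (median -0.10, against no rises, 7 falls and a median of -0.49 in the OXPHOS set), among them QCR2, a core subunit, at 236, 225 and 233 RPKM in atp7D puf3D cells and 292, 287 and 301 RPKM in puf3D cells (log2 change -0.45, SE 0.04, adjusted p = 2.4e-07). Of 10 complex IV subunits 3 fell and 3 rose (median -0.0036, against 2 rises, 7 falls and a median of -0.36 in the OXPHOS set). Of all features 30.3% fell and 33.1% rose without PUF3. COX4 fell, at 190.4, 185 and 204 RPKM in atp7D puf3D cells and 257, 242 and 257 RPKM in puf3D cells (log2 change -0.49, SE 0.08). COX5B, the form of subunit 5 used when oxygen is scarce, rose, at 154, 162 and 186 RPKM in atp7D puf3D cells and 45.0, 56.5 and 59.4 RPKM in puf3D cells (log2 change 1.52, SE 0.15, adjusted p = 7.9e-07). The cytochrome c genes also differed from each other, though neither fell. CYC7, the minor form, had 154, 131 and 177 RPKM in atp7D puf3D cells and 12.5, 18.4 and 19.0 RPKM in puf3D cells (log2 change 3.04, SE 0.32, adjusted p = 1.2e-06), while CYC1, the major form, had 1000.1, 934 and 969.5 RPKM and 913, 756 and 764 RPKM in the same order and was not called (log2 change 0.15, SE 0.07, adjusted p = 0.062; 0.0028 without puf3D library 1). QCR2 fell less without PUF3 than with it (log2 difference 0.22, SE 0.05, adjusted p = 0.02). The adjusted p for QCR2 was 0.0072 to 0.064 with any single library left out, and the call was lost without wild-type library 3, puf3D library 2, atp7D library 3 or atp7D puf3D library 1.

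Genes of the mitochondrial ribosome, the best known targets of Puf3, had no common direction without it. Of 75, 10 rose, 22 fell, 43 were not called, and the median change was 0.01. Without rescaling of the libraries 26 rose and 7 fell, so the split depends on that choice. MRPL31, a large-subunit protein, had 174, 181 and 188 RPKM in atp7D puf3D cells and 174, 165 and 158 RPKM in puf3D cells, and the groups overlapped on the rescaled scale (log2 change 0.02, SE 0.07, adjusted p = 0.85). MRP4, a small-subunit protein, had 113, 107 and 116 RPKM in atp7D puf3D cells and 125, 133 and 132 RPKM in puf3D cells (log2 change -0.32, SE 0.04, adjusted p = 1.3e-05). RML2, of the large subunit, had the lowest change of the 75, at 74.1, 78.6 and 82.1 RPKM in atp7D puf3D cells and 89.3, 106 and 104 RPKM in puf3D cells (log2 change -0.45, SE 0.06). RSM19, of the small subunit, had the highest, at 183, 200.1 and 205 RPKM and 118, 123 and 113 RPKM in the same order (log2 change 0.62, SE 0.10, adjusted p = 5.2e-05). MRPL28 rose as well, at 94.9, 92.3 and 93.9 RPKM in atp7D puf3D cells and 65.2, 62.2 and 61.4 RPKM in puf3D cells (log2 change 0.46, SE 0.06).

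With PUF3 present nearly all of these genes rose. In atp7D against wild type of the PUF3 set, 73 of the 75 rose and none fell (median 0.46), and in the OXPHOS set all 75 rose (median 0.51). MRPL31 had 237, 236 and 238 RPKM in atp7D cells and 124, 137 and 135 RPKM in wild-type cells (log2 change 0.76, SE 0.07, adjusted p = 5.5e-07). MRP4 had 165, 165 and 170.0 RPKM in atp7D cells and 112, 123 and 122 RPKM in wild-type cells (log2 change 0.40, SE 0.04, adjusted p = 3.7e-06). The difference of the effects was negative for all 75 and called for 68 of them (4.95% of all features were called lower in this test), and their median was -0.52 (log2). MRPL31 had a log2 difference of -0.74 (SE 0.10, adjusted p = 0.00016) and MRP4 of -0.72 (SE 0.06, adjusted p = 3e-06). RML2, RSM19 and MRPL28, which moved in different directions without PUF3, had differences of -0.60 (SE 0.09), -0.54 (SE 0.14) and -0.57 (SE 0.08). Leaving out any single library gave RSM19 an adjusted p of 0.0024 to 0.069, and the call was lost without wild-type library 3, puf3D library 2, atp7D library 1, atp7D library 3 or atp7D puf3D library 1. The 7 that were not called had differences of -0.16 to -0.56. Leaving out any library, wild-type library 1 included, kept the count between 63 and 71 of 75, and it was 60 without rescaling. The mean of the 75 on the log2 scale was 6.80, 6.82 and 6.83 in the atp7D puf3D libraries, 6.81, 6.85 and 6.80 in the puf3D libraries, 7.13, 7.17 and 7.15 in the atp7D libraries, and 6.64, 6.65 and 6.65 in the wild-type libraries. The puf3D libraries thus lay above the wild-type libraries and below the atp7D libraries.

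**Figure D3:**
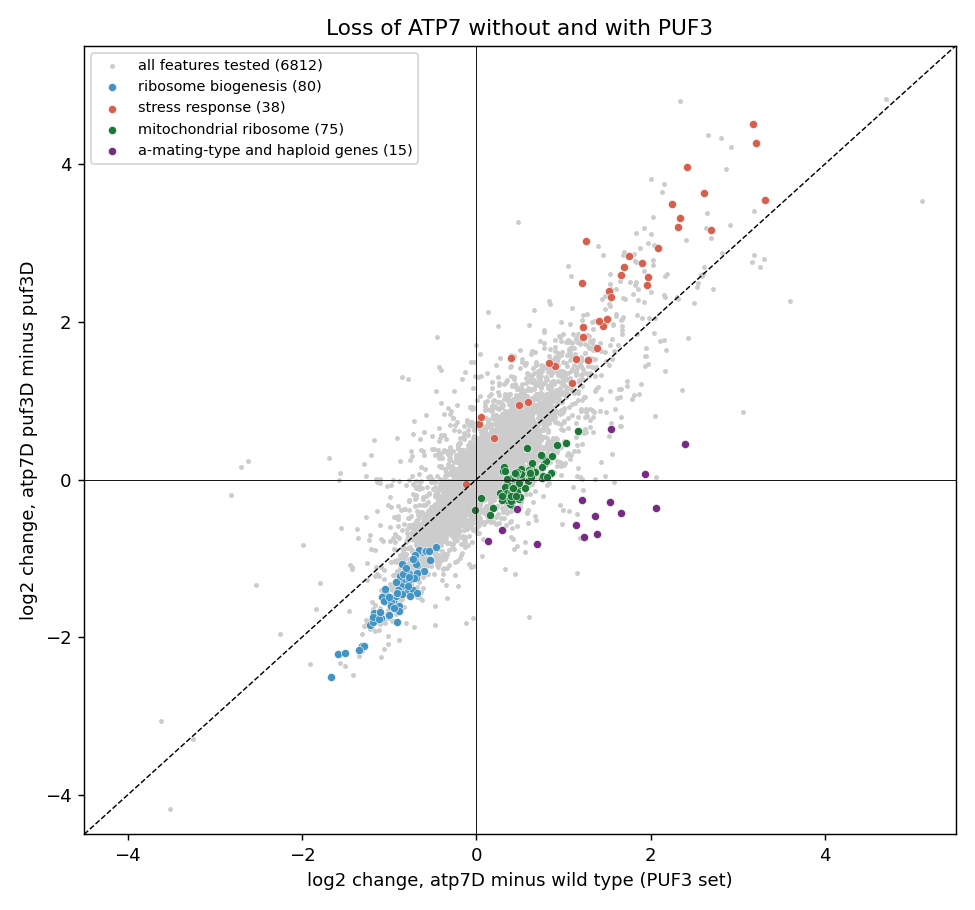
Log2 change on loss of ATP7 for 6812 features: vertical axis, atp7D puf3D minus puf3D; horizontal axis, atp7D minus wild type of the PUF3 set; dashed line, equal change; 7 features lie outside the axes. The 75 mitochondrial ribosome genes lie to the right near 0 on the vertical axis, with medians of 0.01 without and 0.46 with PUF3, ribosome biogenesis genes lie low and stress genes high on both axes, and most a-mating-type genes lie well below the dashed line.

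Translation factors and import genes of mitochondria were split without PUF3. Of all features 33.1% rose and 30.3% fell without PUF3, and 4.95% were called lower in the difference. Of 8 translation factors, 4 rose and 1 fell without PUF3 (median 0.11, against 6 rises, 1 fall and a median of 0.62 in the OXPHOS set), and the difference was called for 5, all negative (median -0.34). RRF1, which recycles mitochondrial ribosomes, had 49.3, 50.5 and 51.0 RPKM in atp7D puf3D cells and 40.8, 37.5 and 34.9 RPKM in puf3D cells (log2 change 0.30, SE 0.07, adjusted p = 0.0009), a smaller rise than with PUF3 (log2 difference -0.40, SE 0.09, adjusted p = 0.015). MEF2, an elongation factor-like protein of ribosome recycling, was not called (log2 change -0.28, SE 0.12, adjusted p = 0.062; 0.03 without puf3D library 2). Of 35 import and folding genes 11 rose and 15 fell (median -0.08, against 23 rises, 2 falls and a median of 0.19 in the OXPHOS set), and the difference was called for 14, all negative (median -0.32). Leaving out wild-type library 1 gave 23 negative calls and 1 positive, and leaving out wild-type library 3 gave 9 negative calls. Chaperones were among the rises. HSP78, which rescues aggregated matrix proteins, had 278, 269 and 290.3 RPKM in atp7D puf3D cells and 49.5, 40.8 and 44.4 RPKM in puf3D cells (log2 change 2.51, SE 0.19, adjusted p = 7.1e-08). HSP60, the matrix chaperonin, had 1267, 1302 and 1244 RPKM in atp7D puf3D cells and 817, 838 and 885 RPKM in puf3D cells (log2 change 0.48, SE 0.09, adjusted p = 0.00027). TOM70, an import receptor of the outer membrane, fell, at 227, 226 and 232 RPKM in atp7D puf3D cells and 291, 275 and 267 RPKM in puf3D cells (log2 change -0.39, SE 0.04, adjusted p = 6.3e-07). With PUF3 it had a change of 0.0017 (adjusted p = 0.98), and the difference was -0.39 (SE 0.05, adjusted p = 0.00024). PAM18, part of the import motor, fell too (log2 change -0.53, SE 0.07), with a difference of -0.70 (SE 0.10, adjusted p = 0.00022).

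Respiratory chain assembly factors mostly rose: 17 of 30 rose and 3 fell (median 0.21, against 23 rises, 2 falls and a median of 0.52 in the OXPHOS set). COX17, the copper chaperone for cytochrome oxidase and a well-studied Puf3 target, had 376, 374 and 379 RPKM in atp7D puf3D cells and 289, 252 and 263 RPKM in puf3D cells (log2 change 0.38, SE 0.07, adjusted p = 0.00025). With PUF3 it had 305, 306 and 305 RPKM in atp7D cells and 158, 172 and 176 RPKM in wild-type cells (log2 change 0.77, SE 0.07), and the difference was -0.38 (SE 0.10, adjusted p = 0.03). Every atp7D puf3D library was above every library of the other 3 groups. For COX17, fits without a single library gave an adjusted p of 0.016 to 0.075, and the call was kept only without wild-type library 1 or puf3D library 2. COX14, which couples translation of Cox1 to its assembly, had 195, 201 and 201 RPKM in atp7D puf3D cells and 106, 103 and 111 RPKM in puf3D cells (log2 change 0.79, SE 0.06, adjusted p = 1.4e-07), with a difference of -0.46 (SE 0.09, adjusted p = 0.0047). CBP4, an assembly factor of complex III, rose by 0.77 (SE 0.10) without PUF3 and 0.82 (SE 0.10) with it, with a difference of -0.05 (SE 0.14, adjusted p = 0.87). PET309, an activator of the mitochondrial COX1 message, fell (log2 change -0.58, SE 0.10, adjusted p = 0.00011). Of 14 genes for maintenance and transcription of mitochondrial DNA 8 fell and 2 rose (median -0.27, against 6 rises, 3 falls and a median of 0.11 in the OXPHOS set). SUV3, the helicase of the mitochondrial RNA degrading complex, had 26.1, 27.2 and 27.9 RPKM in atp7D puf3D cells and 32.3, 31.2 and 33.4 RPKM in puf3D cells (log2 change -0.35, SE 0.05, adjusted p = 3.7e-05), with a difference of -0.51 (SE 0.08, adjusted p = 0.00046). Of 16 iron-sulfur cluster genes 6 rose and 3 fell (median 0.09, against 7 rises, 2 falls and a median of 0.14 in the OXPHOS set), ISU1, a scaffold protein, among the rises (log2 change 0.56, SE 0.05, adjusted p = 6.5e-07). Of 8 heme synthesis genes 2 rose and 3 fell (median -0.09, against 1 rise, 2 falls and a median of -0.05 in the OXPHOS set), and HEM1, the first enzyme of the pathway, was among the falls (log2 change -0.52, SE 0.08, adjusted p = 7.3e-05).

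Some drug resistance genes and most iron genes rose without PUF3. Of 14 genes of pleiotropic drug resistance 6 rose and 1 fell (median 0.31, against 8 rises, no falls and a median of 0.26 in the OXPHOS set). Among all features 33.1% rose and 30.3% fell without PUF3, so the count of rises does not by itself set this list apart. PDR5, the main drug efflux pump, had 517, 498 and 517 RPKM in atp7D puf3D cells and 206, 208 and 216 RPKM in puf3D cells (log2 change 1.17, SE 0.04, adjusted p = 8.9e-11). PDR15, a related pump, had 70.9, 64.2 and 70.2 RPKM in atp7D puf3D cells and 10.4, 10.3 and 10.4 RPKM in puf3D cells (log2 change 2.51, SE 0.11, adjusted p = 3.4e-10). PDR3, the regulator that answers to mitochondrial dysfunction, had 40.7, 36.8 and 41.7 RPKM in atp7D puf3D cells and 26.6, 24.4 and 23.6 RPKM in puf3D cells (log2 change 0.55, SE 0.06, adjusted p = 2e-06). The groups did not overlap for any of the 3 genes, and the difference from cells with PUF3 was called for PDR15 (0.74, SE 0.15, adjusted p = 0.007) but not for PDR5 (0.13, SE 0.06) or PDR3 (-0.06, SE 0.09). PDR5 also rose in the OXPHOS set, with a log2 change of 2.27 (adjusted p = 6.3e-14).

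Of 25 genes of the iron regulon, which cells use to take up and save iron, 17 rose and 2 fell (median 0.50, against 12 rises, no falls and a median of 0.18 in the OXPHOS set). FET3, the copper oxidase of iron uptake, had 208, 221 and 206 RPKM in atp7D puf3D cells and 48.6, 48.1 and 52.6 RPKM in puf3D cells (log2 change 1.96, SE 0.11, adjusted p = 6e-09). HMX1, heme oxygenase, had 185, 175 and 188 RPKM in atp7D puf3D cells and 43.6, 38.2 and 43.0 RPKM in puf3D cells (log2 change 2.00, SE 0.22, adjusted p = 1.6e-06). SIT1, a siderophore transporter, had 32.6, 37.8 and 32.3 RPKM in atp7D puf3D cells and 8.87, 10.9 and 9.58 RPKM in puf3D cells (log2 change 1.61, SE 0.17, adjusted p = 1.1e-06). All 3 were several times higher in every atp7D puf3D library, and their differences from cells with PUF3 were not called (FET3 0.39, SE 0.16; HMX1 0.51, SE 0.31; SIT1 0.36, SE 0.24). Without wild-type library 1 those of FET3 (adjusted p = 0.0072) and HMX1 (adjusted p = 0.031) were called. TIS11, which destroys mRNAs of iron-using proteins, rose more without PUF3 than with it, at 14.0, 13.2 and 12.2 RPKM in atp7D puf3D cells and 3.50, 3.18 and 4.09 RPKM in puf3D cells (log2 change 1.53, SE 0.16; log2 difference 1.00, SE 0.22, adjusted p = 0.011).

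Of 8 zinc-responsive genes 5 rose and 2 fell without PUF3 (median 0.47), whereas none rose and 3 fell with PUF3 in the PUF3 set (median -0.24) and 6 fell in the OXPHOS set (median -0.48). The difference was called for 4 of the 8, all positive (2.5% of all features were called higher in this test). ZPS1, a cell wall protein made when zinc is low, had 238, 278 and 247 RPKM in atp7D puf3D cells and 13.8, 31.7 and 29.8 RPKM in puf3D cells (log2 change 3.26, SE 0.46, adjusted p = 1.9e-05). It had 33.6, 95.8 and 72.2 RPKM in atp7D cells and 37.9, 34.5 and 53.9 RPKM in wild-type cells, and the log2 difference was 2.78 (SE 0.65, adjusted p = 0.015). All atp7D and wild-type libraries lay below every atp7D puf3D library. ADH4, an alcohol dehydrogenase induced when zinc is low, had 160.0, 192 and 167 RPKM in atp7D puf3D cells, 57.6, 57.8 and 60.5 RPKM in puf3D cells, 44.6, 59.5 and 49.6 RPKM in atp7D cells and 59.9, 67.0 and 68.0 RPKM in wild-type cells. The atp7D puf3D libraries were the only ones of the 4 groups above 100 RPKM, and the log2 difference was 1.86 (SE 0.13, adjusted p = 9.7e-07). ZAP1, the zinc-sensing activator of these genes, had a log2 change of 0.38 (SE 0.11, adjusted p = 0.0066) and a difference of 0.87 (SE 0.15, adjusted p = 0.0022).

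Genes of carbon metabolism rose in part. Of 17 glycolysis genes 10 rose and none fell (median 0.23, against 11 rises, 1 fall and a median of 0.17 in the OXPHOS set). ENO1, enolase, had 2031, 2033 and 1985 RPKM in atp7D puf3D cells and 582, 586 and 692 RPKM in puf3D cells (log2 change 1.59, SE 0.19, adjusted p = 3.4e-06) and a difference from cells with PUF3 of 0.96 (SE 0.27, adjusted p = 0.038). The adjusted p for ENO1 was 0.0047 to 0.11 with any single library left out, and the call was kept only without wild-type library 1 or puf3D library 3. Of 17 genes of gluconeogenesis, the glyoxylate cycle and acetate use 9 rose and 2 fell (median 0.42, against 7 rises, no falls and a median of 0.13 in the OXPHOS set), with ALD4, the mitochondrial aldehyde dehydrogenase, at 159, 155 and 155 RPKM in atp7D puf3D cells and 25.8, 35.1 and 39.5 RPKM in puf3D cells (log2 change 2.10, SE 0.31, adjusted p = 3.1e-05). Among 7 hexose transporters 3 rose and none fell (median -0.09, against 1 rise, 1 fall and a median of 0.05 in the OXPHOS set). HXT2, a high-affinity transporter, was not called; it had 136, 114 and 118 RPKM in atp7D puf3D cells and 106, 364 and 301 RPKM in puf3D cells, where library 1 was below all the others (log2 change -0.99, SE 0.42, adjusted p = 0.052; 0.0023 without that library). Of 21 antioxidant enzymes 16 rose and 1 fell (median 0.60, against 7 rises, 2 falls and a median of 0.09 in the OXPHOS set). GRX2, a glutaredoxin, had 307, 304 and 326 RPKM in atp7D puf3D cells and 104, 115 and 120.0 RPKM in puf3D cells (log2 change 1.35, SE 0.10, adjusted p = 4.1e-08). Of 32 proteasome genes 9 rose, a smaller share than the 33.1% of all features, and none fell (median 0.09, against 1 rise, 2 falls and a median of -0.03 in the OXPHOS set). RPN4, the activator of these genes, was among the 9, at 88.8, 92.2 and 98.2 RPKM in atp7D puf3D cells and 37.5, 42.6 and 35.9 RPKM in puf3D cells (log2 change 1.14, SE 0.11, adjusted p = 4.2e-07).

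Of 16 phosphate genes tested, 9 fell and 1 rose (median -0.30, against 2 rises, 10 falls and a median of -0.21 in the OXPHOS set). PHO84, the main phosphate transporter, had 441, 458 and 423 RPKM in atp7D puf3D cells and 981, 1261 and 1228 RPKM in puf3D cells (log2 change -1.49, SE 0.16, adjusted p = 1.5e-06), and its difference from cells with PUF3 was -0.82 (SE 0.23, adjusted p = 0.04). Leaving out any single library gave PHO84 an adjusted p of 0.001 to 0.11, and the call was kept only without wild-type library 1 or puf3D library 1. SPL2, which steers cells between phosphate transporters, fell as well (log2 change -0.43, SE 0.12, adjusted p = 0.0047). AQR1, a membrane exporter of the 10 largest falls, had 25.7, 21.9 and 24.5 RPKM in atp7D puf3D cells and 84.4, 173 and 144 RPKM in puf3D cells (log2 change -2.48, SE 0.33, adjusted p = 1.3e-05), but in the OXPHOS set its change was 0.09 (adjusted p = 0.65). BSC1 had 5.65, 5.04 and 4.90 RPKM in atp7D puf3D cells and 7.22, 56.5 and 52.3 RPKM in puf3D cells, where library 1 was far below the other two (log2 change -2.34, SE 0.55, adjusted p = 0.0016). Amino acid synthesis genes under Gcn4, the activator of that program, were split, with 9 of 37 up and 10 down (median -0.07, against 5 rises, 21 falls and a median of -0.15 in the OXPHOS set), and so were the 24 ergosterol genes, with 8 up and 9 down (median -0.05, against 4 rises, 3 falls and a median of -0.01 in the OXPHOS set). Of all features 33.1% rose and 30.3% fell without PUF3, so these counts set neither list apart. The 12 hypoxic genes tested had 3 rises and 3 falls (median -0.11, against 3 rises, 1 fall and a median of -0.13 in the OXPHOS set), and the 8 copper-responsive genes 4 rises, of which 2 were the repeated CUP1 copies, and 1 fall (median 0.33, against 1 rise, 1 fall and a median of -0.01 in the OXPHOS set, where 6 were tested). NCE103, carbonic anhydrase, rose, at 188, 184 and 169 RPKM in atp7D puf3D cells and 79.1, 96.6 and 92.5 RPKM in puf3D cells (log2 change 0.90, SE 0.28, adjusted p = 0.01).

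**Figure D4:**
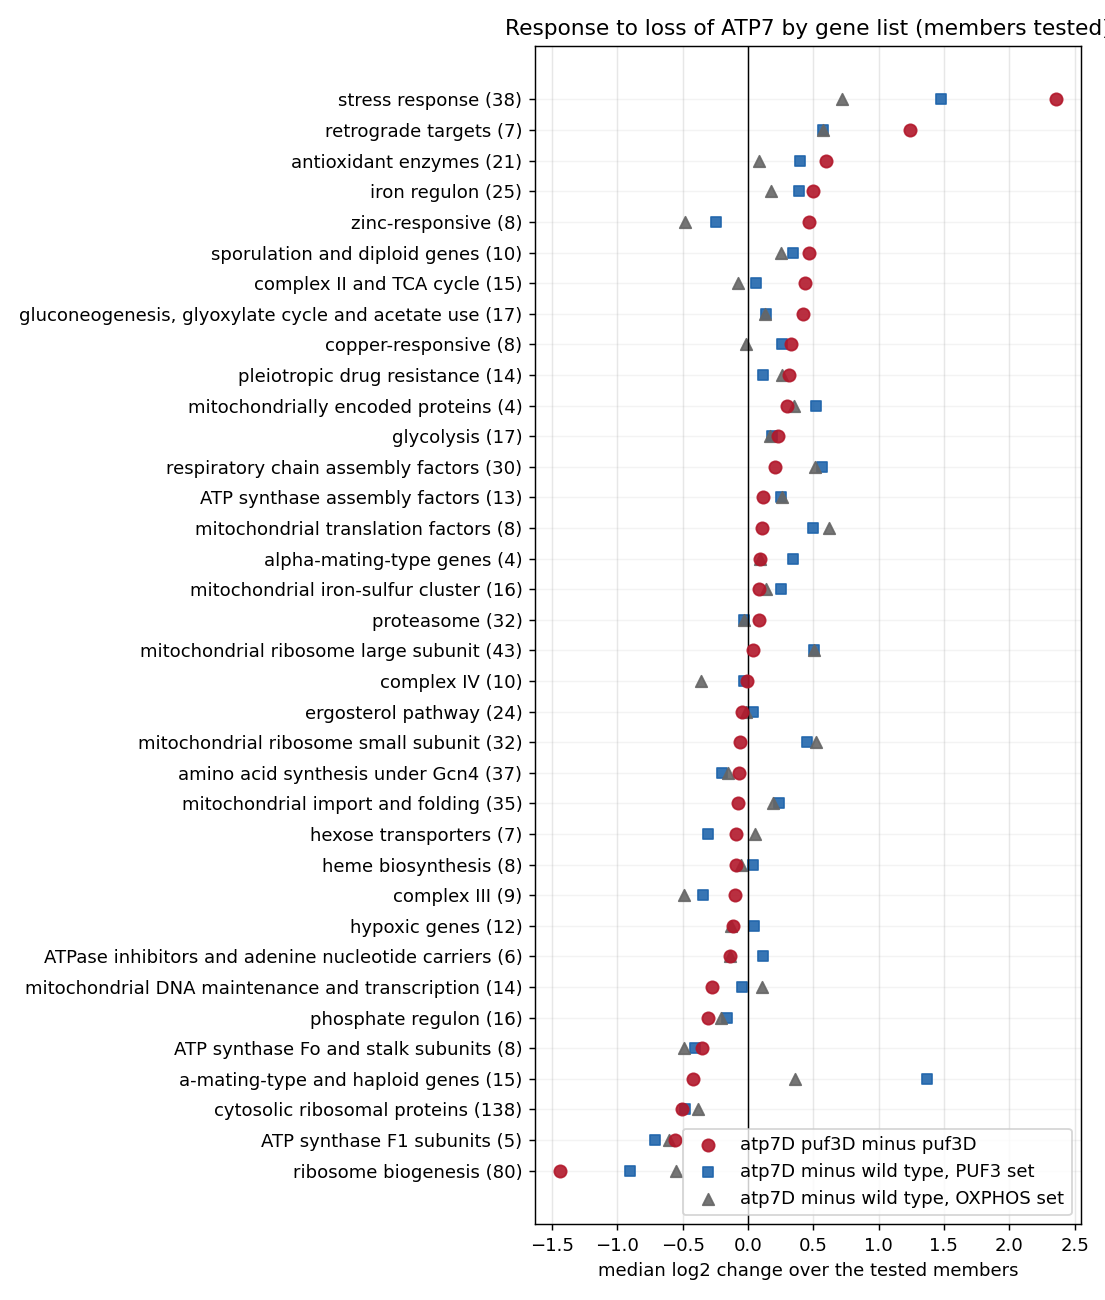
Median log2 change over the tested members of 36 gene lists (rows, number tested in brackets) for atp7D puf3D minus puf3D (circles), atp7D minus wild type of the PUF3 set (squares) and atp7D minus wild type of the OXPHOS set (triangles). Stress genes have medians of 2.36, 1.48 and 0.72 and ribosome biogenesis genes of -1.44, -0.90 and -0.55, while for both subunits of the mitochondrial ribosome only the circles lie near 0.

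With PUF3 itself absent, the genes of the other Pumilio proteins were looked at after their values were known. PUF6, a nucleolar protein of ribosome assembly, had 69.9, 71.2 and 71.4 RPKM in atp7D puf3D cells and 216, 250.3 and 227 RPKM in puf3D cells (log2 change -1.80, SE 0.16, adjusted p = 3.7e-07). PUF4, which binds mRNAs of ribosome biogenesis factors, had 73.7, 71.8 and 71.8 RPKM in atp7D puf3D cells and 117, 131 and 125 RPKM in puf3D cells (log2 change -0.88, SE 0.08, adjusted p = 3.3e-07). JSN1 and PUF2, which bind mRNAs of membrane proteins, rose, with log2 changes of 0.87 (SE 0.13) and 0.73 (SE 0.08), and MPT5 was not called (-0.18, SE 0.11, adjusted p = 0.18; 0.006 without puf3D library 1). The difference from cells with PUF3 was called for none of these 5 by limma, with adjusted p of 0.07 to 0.6 (4 at an unadjusted p under 0.05, and 0 of 4 with voom). That of PUF4 was called without wild-type library 1 (adjusted p = 0.0003) and without puf3D library 1 (adjusted p = 0.043).

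Most of the response was shared with cells that carry PUF3. Of the 4319 features called without PUF3, 3055 (70.7%) were also called in the same direction in atp7D against wild type of the PUF3 set, and these were 82.2% of the 3717 called there. Another 81 were called in opposite directions, of which 68 were higher with PUF3 and lower without it. Of the 4277 called without PUF3 that the OXPHOS set could also test, 2301 (53.8%) were called in the same direction there, 75.3% of the 3055 called in that set, and 130 in the opposite direction. Across the 6812 features tested the log2 changes without and with PUF3 had a Pearson correlation of 0.86 in the PUF3 set, and across the 6722 features tested in both sets 0.67 with the OXPHOS set. Features are not independent replicates, and both atp7 groups of the PUF3 set share the repeated-feature pattern given above.

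The difference between the effect without and with PUF3 was called for 507 of 6812 features (7.44%), 170 positive and 337 negative. Of the 337, 68 were mitochondrial ribosome genes. Of the same 337, 95 rose with PUF3 and were not called without it, 66 rose in both, and 68 rose with PUF3 and fell without it. Leaving out 1 library gave 347 to 724 calls, except that 1793 were called without wild-type library 1.

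By the same rule, with the level taken over all 12 libraries and the call in the difference, the 6 most negative differences were not in mitochondrial genes. All 6 (MFA1, FUS3, STE2, GPA1, AGA2 and HO) are genes of mating type a or of haploid cells. MFA1, the a-factor pheromone, had 509.5, 452 and 527 RPKM in atp7D puf3D cells and 599, 614 and 552 RPKM in puf3D cells, and 628, 595 and 584 RPKM in atp7D cells and 179, 113 and 123 RPKM in wild-type cells (log2 difference -2.42, SE 0.20, adjusted p = 2.3e-06). STE2, the receptor for alpha-factor, had 260.0, 259 and 264 RPKM in atp7D puf3D cells and 392, 398 and 384 RPKM in puf3D cells, and 287, 262 and 276 RPKM in atp7D cells and 125, 91.4 and 84.5 RPKM in wild-type cells (log2 difference -2.07, SE 0.18, adjusted p = 3.7e-06). The group that stood apart was the wild type, which was low for both genes. FUS3 and GPA1, of the pheromone signal, had log2 differences of -2.09 (SE 0.19) and -1.97 (SE 0.16), AGA2, an adhesion protein of a cells, of -1.94 (SE 0.16), and HO, the mating-type switching enzyme, of -1.93 (SE 0.22). The difference was negative and called for all 15 genes of the mating list (median -1.82). In the main comparison 12 of them fell and 2 rose, with a median of -0.42; STE2 fell (log2 change -0.69, SE 0.13, adjusted p = 0.00026) and so did MFA1 (-0.36, SE 0.14, adjusted p = 0.038). For MFA1, fits without a single library gave an adjusted p of 0.043 to 0.12, and the call was kept only without puf3D library 3. Of the same 15, 10 rose in the OXPHOS set (median 0.36). Of the sporulation and diploid genes 6 of 10 rose and 2 fell (median 0.47, against 2 rises, 1 fall and a median of 0.25 in the OXPHOS set). Of the 4 alpha-mating-type genes 2 rose (median 0.09, against no rises, no falls and a median of 0.10 in the OXPHOS set). These lists are weakly expressed, and in the main comparison the median of all features with a mean log2 level under 3 was 0.31. The part of the wild-type libraries' low a-type expression in the differences of other genes was not tested.

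By that rule, the 6 most positive differences were in ZPS1 and ADH4, given above, and in IMD2, BTN2, SUE1 and CTT1. IMD2, an enzyme of guanine nucleotide synthesis whose level follows the GTP supply, had 61.8, 60.7 and 60.9 RPKM in atp7D puf3D cells and 15.3, 26.0 and 28.5 RPKM in puf3D cells, and 52.0, 53.0 and 51.6 RPKM in atp7D cells and 79.0, 94.1 and 96.8 RPKM in wild-type cells. It thus rose without PUF3 (log2 change 1.30, SE 0.19, adjusted p = 2.9e-05) and fell with it (log2 change -0.85, SE 0.19, adjusted p = 0.0015), a difference of 2.15 (SE 0.27, adjusted p = 0.00011). SUE1, needed to degrade unstable cytochrome c, had 38.4, 42.0 and 47.2 RPKM in atp7D puf3D cells and 4.42, 4.26 and 3.95 RPKM in puf3D cells, and 38.0, 42.3 and 43.6 RPKM in atp7D cells and 8.69, 19.6 and 16.4 RPKM in wild-type cells (log2 difference 1.57, SE 0.24, adjusted p = 0.00068). For SUE1 the atp7D puf3D and atp7D libraries overlapped, and the puf3D libraries were below all wild-type libraries. BTN2 had a log2 difference of 1.81 (SE 0.35, adjusted p = 0.0047) and CTT1 of 1.54 (SE 0.40, adjusted p = 0.029). The adjusted p for CTT1 was 0.0013 to 0.09 with any single library left out, and the call was kept only without wild-type library 1, puf3D library 1, puf3D library 3 or atp7D library 2.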

How the data were processed

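The authors deposited 1 RPKM value per feature and library (7126 features). Per the submitters' processing notes, build R64 and the tools edgeR 3.28.1, STAR 2.6.1a, CASAVA 1.9 and featureCounts were used, with no role given. Of the feature IDs, 6048 matched the reference annotation, from which symbols were taken.

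The 18 libraries of the PUF3 set were put on one scale by trimmed mean log ratios (30% of ratios and 5% of levels trimmed). Features with at least 1 RPKM in 3 libraries were kept, which left out 314. Values of log2(RPKM + 1) were fitted with limma 3.58.1 in R 4.3.3 (trend), with Benjamini-Hochberg adjustment over all features tested and a threshold of 0.05. The fit held all 18 libraries with 1 mean per group, so each SE and p rests on the spread over the whole set. They do not measure the spread of the 6 compared libraries alone. Adjusted p in the text come from this fit, except those given for the OXPHOS set or with a library left out. The pseudocount of 1 understates changes of weakly expressed genes. The difference is the effect of atp7 deletion without PUF3 minus that with PUF3, where a negative value means a lower change without PUF3. The OXPHOS set was fitted alone. Alternatives changed the rescaling, filter, pseudocount, groups, replicate block and replicates.

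Reads per library were recovered from the RPKM steps: at least 96.1% of values under 1000 reads were whole within 0.05 reads in every library, and 5736 genes were whole in all. On simulated data with 6812 genes, 85% of log2 changes of 0.585 and 98% of changes of 1 were recovered in the main comparison (5.18% of calls false), and 71% and 91% in the difference (8.47% false). Only 100 genes were changed at each size, all with a log2 level over 3 and with as many rises as falls. The rescaling step was not run on them. Far more features were called in the real data, so these rates need not hold there.

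Members and gene lists were chosen with earlier results of these data known. Named genes were the 10 largest rises and falls and the 6 largest differences each way (called, with a symbol, a mean of at least 3 on the log2 scale and groups that did not overlap), from each list the 4 or fewer members of smallest p, called members against their list's median, and 22 fixed names. HCS1, PUT3, RDN25-1, RDN58-1, REI1, SSA3, ZAP1 and the Pumilio genes lie outside this rule and were chosen after their values were seen. The other 50 libraries of the series were not used here.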

Additional observations from a re-analysis of the deposited data

Results flagged for a closer look

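The effect of ATP7 loss differed between cells without and with PUF3, by limma's test of the difference itself, for 31 of the genes named in the report. Values are the log2 change without PUF3 minus that with PUF3. Among mitochondrial ribosome genes they were -0.72 for MRP4, -0.57 for MRPL28, -0.74 for MRPL31, -0.60 for RML2 and -0.54 for RSM19. Among other mitochondrial genes they were -0.40 for RRF1, -0.39 for TOM70, -0.70 for PAM18, -0.46 for COX14, -0.38 for COX17 and -0.51 for SUV3. All of these are negative, so each gene had a lower change on loss of ATP7 without PUF3 than with it.

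Among genes of mating type a and haploid cells the differences were -2.42 for MFA1, -2.09 for FUS3, -2.07 for STE2, -1.97 for GPA1, -1.94 for AGA2 and -1.93 for HO. Summed over 6 markers of mating type a, the levels in the PUF3 set were 2156 to 2429 RPKM in atp7D puf3D, 2180 to 2530 RPKM in puf3D and 2451 to 2588 RPKM in atp7D libraries, against 562 to 827 RPKM in wild-type libraries. The part of these low wild-type levels in other differences was not tested.

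Among zinc-responsive genes and IMD2 they were 2.78 for ZPS1, 1.86 for ADH4, 0.87 for ZAP1 and 2.15 for IMD2. Among stress, drug and iron genes and SUE1 they were 1.81 for BTN2, 1.57 for SUE1, 1.54 for CTT1, 0.74 for PDR15 and 1.00 for TIS11, and in central metabolism and the respiratory chain 1.33 for CIT2, 0.90 for CIT1, 0.96 for ENO1 and 0.22 for QCR2. The phosphate transporter gene PHO84 had -0.82. No test for outlying libraries was run, but each library was left out in turn. In at least 1 of those fits the calls of CIT2, CIT1, ENO1, PHO84, CTT1, COX17, QCR2 and RSM19 were lost.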

How the results depend on the processing

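The count of features called without PUF3 was 4215 to 4363 under other rescaling, filters, pseudocounts or groups, 3952 to 4264 with 1 library left out, and 3723 with limma's voom on recovered reads, an alternative chosen after seeing the data. On unscaled values, 2701 were higher and 1591 lower without PUF3. With PUF3 these counts were 2324 and 1292 in the PUF3 set (1997 and 1720 on rescaled values), and 2109 and 1044 in the OXPHOS set (1408 and 1650 on rescaled values). The PUF3 set gave 3195 to 3606 calls with PUF3 when 1 library was left out. The OXPHOS set gave 2216 to 3290. There 2330 were called with wild-type libraries 1 to 3 alone and 4010 with wild-type libraries 4 to 6 alone. The difference was called for 347 to 1793 features with 1 library left out. The highest count, 1793 (733 positive, 1060 negative), came without wild-type library 1 and the lowest without atp7D library 3; the cause was not tested. It was 560 with voom and 632 with the compared groups alone, and 1727 features had an unadjusted p under 0.05.

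Some medians near 0 changed sign, and the cause was not tested. Without rescaling, the medians were 0.013 for complex III, 0.11 for complex IV, 0.052 for the mitochondrial small subunit, 0.031 for import and folding, 0.014 for heme synthesis, 0.014 for hexose transporters, 0.040 for Gcn4 genes and 0.064 for ergosterol genes. Mitochondrially encoded genes had -0.44 at a filter of 5 RPKM and -0.0021 at a pseudocount of 5 RPKM. With 1 library left out, the median was -0.052 to 0.069 for complex IV, -0.35 to 0.12 for hexose transporters and -0.019 to 0.027 for the whole mitochondrial ribosome. Single changes near 0 that turned sign were HCS1 (0.0047) and SSA3 (0.051) without rescaling and PUF3 (0.046) with voom. With 1 library left out, the range was -0.020 to 0.050 for MRPL31 and -0.089 to 0.046 for PUF3, and for the differences -0.11 to 0.066 for CBP4 and -0.0093 to 0.11 for IDH1. INH1 passed the threshold under 6 alternatives. Of 1494 values of single genes in the main comparison, 1463 kept their direction and side of the threshold.

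In the main comparison same-numbered libraries did not deviate together (correlations of -0.089, -0.050 and -0.010). With PUF3 in the PUF3 set these correlations were 0.18, 0.12 and -0.026, against highest values of -0.12, 0.19 and 0.013 for other numbers. Wild-type and puf3D libraries were not compared in this way, so pairing between those groups was not tested. With a replicate block, 4355 features were called without PUF3, 3777 with it in the PUF3 set, 2224 in the OXPHOS set, where the block holds wild-type libraries 1 to 3, and 515 in the difference.

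Depth limits weakly expressed genes: 314 features were not tested.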
